A study of Mus musculus with 11 samples.

Results

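Splenic classical dendritic cells (cDCs) are told apart by a small set of surface proteins, and the genes of 8 of these are described here: Sirpa and Cd24a, whose products served to sort the cells, the co-receptor genes Cd4, Cd8a and Cd8b1, the adhesion molecule gene Cadm1, and the lectin receptor genes Ly75 and Cd207. They were taken by symbol, and each was named by 1 probe set that names no other gene, so that 8 of 30177 probe sets and 8 of 19938 measured genes are covered. RNA from cDCs of mouse spleen (C57BL/6 background), sorted by flow cytometry, was hybridised to 11 Affymetrix gene arrays. Of these, 4 held CD172a+ cDCs labelled Zeb2-deficient, whose donors carried floxed Zeb2 alleles together with Cre under the CD11c promoter (Zeb2(fl/fl);CD11c-Cre(tg)), 3 held control CD24+ cDCs and 4 held control CD172a+ cDCs. Both control groups carried the floxed Zeb2 alleles without Cre (Zeb2(fl/fl)), so Cre itself and loss of Zeb2 cannot be told apart. The CD11c promoter drives Cre in cells that express CD11c, not in cDCs alone. The sources used here do not give ages, numbers of animals or pooling. The p-values therefore cover the spread among the arrays alone, part of which may be technical.

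Spleen holds cDC1, which take up dead cells and present their antigens to CD8+ T cells, and cDC2, which present antigens mainly to CD4+ T cells. Mouse cDC1 of the spleen have long been recognised by CD8 alpha chains without the beta chain, by CD24 and by DEC-205, and cDC2 by CD172a (SIRP alpha) and, on many of the cells, CD4. On T cells the same CD4 and CD8 molecules bind class II and class I major histocompatibility molecules beside the antigen receptor.

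Values are log2 expression per probe set after RMA, a method that subtracts background, brings the arrays towards a common distribution and draws 1 value from the probes of each set. Levels of different probe sets cannot be ranked against each other. Differences are given as log2 differences with the standard error (SE) of a limma model over all arrays and genes, and a gene passed when its p adjusted over all genes was below 0.05. Zeb2 itself read 8.32 to 9.24 in CD172a+ cDCs labelled Zeb2-deficient, 5.08 to 5.52 in control CD24+ cDCs and 8.23 to 8.61 in control CD172a+ cDCs. The label is thus not borne out by this probe set, whose place relative to the floxed part of the gene is not given, and every direction for this group rests on the label. The arrays fell into 2 sets along the second principal component (34.2% of the variance), a split that the labels do not name. The first set holds replicates 1 and 2 of both CD172a+ groups and replicate 1 of CD24+ cDCs, and the second holds the others. In a sorted population, fewer cells of a type and less RNA per cell cannot be told apart.

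Sirpa and Cd24a followed the sort, which is no finding. Sirpa, which encodes CD172a, an inhibitory receptor for CD47, read 10.97, 10.94, 10.39 and 10.65 in CD172a+ cDCs labelled Zeb2-deficient, 6.00, 6.17 and 6.43 in control CD24+ cDCs and 11.19, 11.11, 10.75 and 10.62 in control CD172a+ cDCs. Cd24a, which encodes the small glycolipid-anchored protein CD24, read 9.09, 9.08, 9.83 and 9.59 in the labelled Zeb2-deficient cells, 11.41, 11.62 and 11.63 in control CD24+ cDCs and 9.07, 8.56, 9.07 and 9.90 in control CD172a+ cDCs. The 2 CD172a+ groups overlapped for both genes, and the CD24+ arrays stood clear of them. The mean of Cd24a in CD172a+ cDCs (9.40 labelled Zeb2-deficient, 9.15 control) lay above the median of all genes. The Sirpa mean of CD24+ cDCs (6.2) was also above it (5.49). As levels of different probe sets cannot be ranked, this does not show how strongly either gene was expressed.

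**Figure D1:**
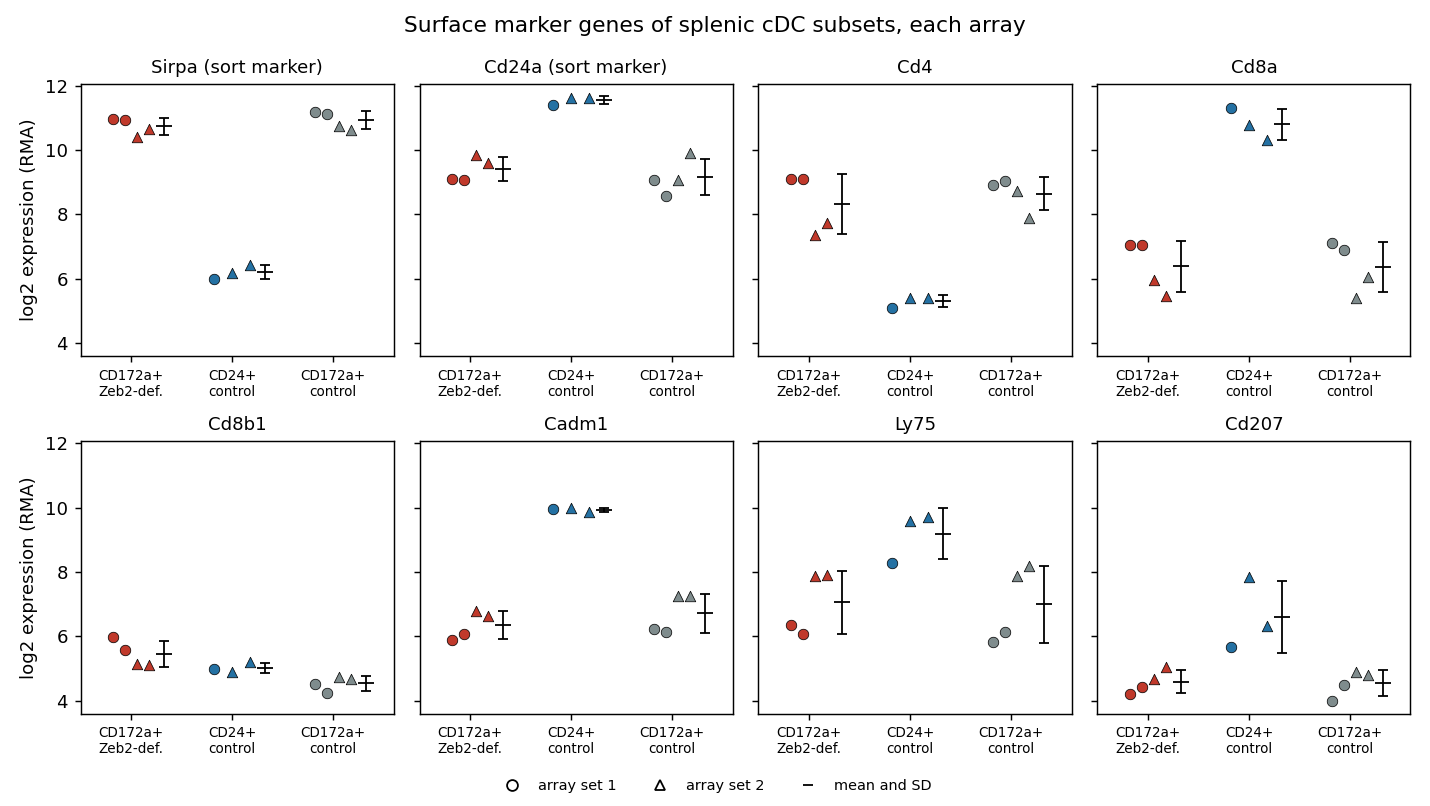
The log2 expression of each of the 8 genes is plotted for every array, in CD172a+ cDCs labelled Zeb2-deficient, control CD24+ cDCs and control CD172a+ cDCs from left to right, with circles for array set 1, triangles for array set 2 and bars for the mean and SD. Cd8a and Cadm1 of CD24+ cDCs stand above 9.8 on all 3 arrays, Cd4 of CD24+ cDCs lies at 5.09 to 5.41, and Ly75 runs higher in set 2 than in set 1 in every group.

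How far the other 6 genes separate the sorted subsets of control mice was asked first. Cd8a, Cadm1 and Cd207 were higher and Cd4 was lower in CD24+ cDCs, while Ly75 and Cd8b1 did not pass. That made 4 of 6, where 6.41% of all genes passed (3.25% higher and 3.16% lower). All 6 had an unadjusted p below 0.05, as had 15.9% of all genes. For each of the 6 the arrays of the subsets stood apart without overlap, which held for 14.6% of all genes (7.13% higher in CD24+ cDCs). These genes were picked as known markers of the subsets, so a share above the background is no independent evidence.

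Cd4 was the co-receptor gene that was higher in control CD172a+ than in control CD24+ cDCs. It read 5.09, 5.41 and 5.4 in control CD24+ cDCs and 8.91, 9.04, 8.71 and 7.90 in control CD172a+ cDCs. All CD24+ arrays lay below the median of all genes and all CD172a+ arrays far above it. The log2 difference was -3.34 (SE 0.431, adjusted p = 0.000602), a 10.1-fold difference that is not an exact ratio, because RMA values shrink near background. Within the first and second array set it was -3.89 and -2.90. Lag3, the neighbouring gene on chromosome 6 and a relative of Cd4 that also binds class II molecules, was lower in CD24+ cDCs as well, with 6.67 ± 0.31 (SD, n = 3) against 7.5 ± 0.36 (SD, n = 4), a log2 difference of -0.83 (adjusted p = 0.0282).

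Cd8a, the alpha chain gene of CD8, read 11.31, 10.78 and 10.32 in control CD24+ cDCs and 7.11, 6.90, 5.39 and 6.05 in control CD172a+ cDCs. The lowest CD24+ array lay above the highest CD172a+ array by a wide margin. The log2 difference was 4.44 (SE 0.484, adjusted p = 0.000181), or 21.8-fold, and 4.3 and 4.83 within the 2 array sets. Cd8b1, the beta chain gene that lies next to Cd8a on chromosome 6, read 4.97, 4.90 and 5.19 in CD24+ cDCs and 4.50, 4.23, 4.73 and 4.68 in CD172a+ cDCs. The 2 groups did not overlap, but all 7 values lay below the median of all genes, and the log2 difference of 0.49 (SE 0.205, 95% interval 0.03 to 0.94) had an adjusted p of 0.261.

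The within-array difference of Cd8a minus Cd8b1 was 6.33, 5.88 and 5.13 in CD24+ cDCs and 2.61, 2.67, 0.66 and 1.37 in CD172a+ cDCs, which is used here only to compare groups and not as a ratio of the chains. It differed by 3.96 between the groups (exact permutation of the array labels, two-sided, p = 0.0286, the smallest that 35 assignments allow, and 0.0429 adjusted over the 3 group pairs). The difference was 3.69 in the first and 4.50 in the second array set. Because Cd8b1 lay below the median of all genes on all 7 arrays, where RMA values shrink, this value largely restates the Cd8a difference and does not measure how far the beta chain gene differed.

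**Figure D2:**
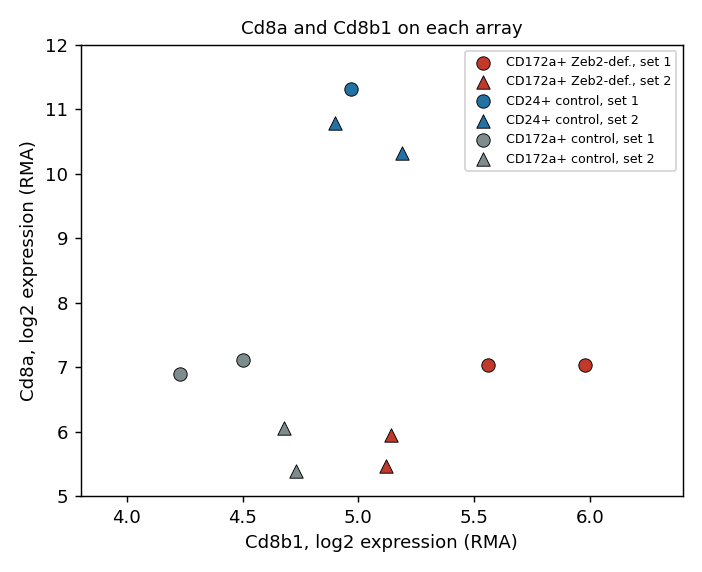
Cd8a is plotted against Cd8b1 (both log2 expression) for each of the 11 arrays, coloured by group, with circles for array set 1 and triangles for array set 2. CD24+ arrays lie at 10.32 or more on the Cd8a axis while their Cd8b1 values, 4.90 to 5.19, lie above all 4 control CD172a+ arrays and overlap those labelled Zeb2-deficient.

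T cells express both chains of CD8, and CD4, so T cell markers were read beside these genes. Of 15 such genes 13 were measured, and none passed between CD24+ and CD172a+ control cDCs in limma (1 at an unadjusted p below 0.05). Their mean log2 level was 5.07 to 5.25 in CD172a+ cDCs labelled Zeb2-deficient, 4.81 to 5.09 in control CD24+ cDCs and 5.01 to 5.26 in control CD172a+ cDCs. The antigen receptor subunit genes Cd3d, Cd3e and Cd3g had means below the median of all genes in all 3 groups. In CD24+ against CD172a+ control cDCs they averaged 4.71 and 5 for Cd3d, 5.2 and 5.4 for Cd3e, and 3.70 and 3.89 for Cd3g. Of the 13, 3 had a mean above that median in each control group and 2 in the labelled Zeb2-deficient group. Cd5 (7.24 and 7.78) and Il7r (6.06 and 6.81) lay above it, and their differences of -0.54 and -0.75 did not pass.

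Cadm1, an immunoglobulin-family adhesion molecule known as Necl2 that marks cDC1 and binds CRTAM on T cells, had the smallest spread of the 8 genes among CD24+ arrays. It read 9.96, 9.99 and 9.87 in control CD24+ cDCs and 6.24, 6.12, 7.24 and 7.24 in control CD172a+ cDCs. The CD172a+ values fell into 2 pairs by array set, both far below CD24+ cDCs. The log2 difference was 3.23 (SE 0.310, adjusted p = 7.4e-05), or 9.38-fold, and 3.78 and 2.69 within the 2 sets. Its relative Cadm3 ran the other way, with 5.38 ± 0.19 in CD24+ (SD, n = 3) and 7.45 ± 0.20 in CD172a+ control cDCs (SD, n = 4), a log2 difference of -2.07 (SE 0.132, adjusted p = 3.43e-06).

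Ly75 encodes DEC-205, an endocytic receptor of the mannose receptor family that delivers cargo for antigen presentation. It read 8.28, 9.58 and 9.72 in control CD24+ cDCs and 5.82, 6.14, 7.86 and 8.20 in control CD172a+ cDCs. The groups did not overlap, yet the lowest CD24+ array, which is in the first array set, stood just above the highest CD172a+ array, which is in the second. The log2 difference was 2.19 (SE 0.678), or 4.56-fold, with an adjusted p of 0.0952 that missed the threshold. Blocking on the array set gave 1.90 (SE 0.152, adjusted p = 2.65e-06). Within the first set, which has 1 CD24+ array, the difference was 2.30, and within the second it was 1.62 (adjusted p = 0.0017). The sets were found from these same values, Ly75 included, so these p-values do not replace that of the fit over all arrays without the block.

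Cd207 encodes langerin, a C-type lectin named for Langerhans cells of the skin that is also found on part of the splenic cDC1. It read 5.65, 7.85 and 6.31 in control CD24+ cDCs and 3.98, 4.49, 4.88 and 4.80 in control CD172a+ cDCs. The CD24+ arrays were spread over a wide range and all lay above the CD172a+ arrays, which were all below the median of all genes. The log2 difference was 2.07 (SE 0.436, adjusted p = 0.0155), or 4.19-fold, again not an exact ratio. It was 1.44 (adjusted p = 0.0242) without CD24+ replicate 2, the highest array, and it did not pass when only the arrays of the 2 groups were fitted (adjusted p = 0.0636). Genomic neighbours of the 2 lectin receptor genes did not pass where they were on the lists. The means of these neighbours, Clec4f and Pla2r1, lay below the median of all genes in both groups. RMA values shrink there, so a difference could be missed. Clec4f, next to Cd207, differed by 0.21 (adjusted p = 0.285), with 4.89 ± 0.11 in CD24+ and 4.68 ± 0.08 in CD172a+ control cDCs. Pla2r1, next to Ly75, averaged 4.48 ± 0.29 in CD24+ and 4.59 ± 0.09 in CD172a+ control cDCs (SD, n = 3 and n = 4).

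Upstream sequence was at hand for 3 of the 8 genes, Cd8a, Ly75 and Cd207, and these 3 had higher values in CD24+ cDCs on every array. The windows are shown so that the bases before these 3 starts can be set side by side. Each is the 250 bases before the RefSeq start in GRCm38.p6, 5′ to 3′ on the strand of the gene, at chr6:71373177-71373426 on the plus strand for Cd8a, chr2:60383274-60383523 on the minus strand for Ly75 and chr6:83677858-83678107 on the minus strand for Cd207. Capitals mark matches on either strand to 5 motifs: CAGGTG and CAGGTA, E-boxes bound by ZEB factors, TGTGGT, bound by RUNX factors, the Ets-IRF composite element, and TGANTCA, bound by AP-1 and BATF factors.
Cd8a: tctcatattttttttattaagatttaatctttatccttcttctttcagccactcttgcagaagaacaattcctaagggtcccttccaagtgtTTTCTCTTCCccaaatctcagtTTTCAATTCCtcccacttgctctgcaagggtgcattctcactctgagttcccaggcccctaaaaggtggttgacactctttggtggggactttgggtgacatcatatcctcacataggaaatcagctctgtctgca
Ly75: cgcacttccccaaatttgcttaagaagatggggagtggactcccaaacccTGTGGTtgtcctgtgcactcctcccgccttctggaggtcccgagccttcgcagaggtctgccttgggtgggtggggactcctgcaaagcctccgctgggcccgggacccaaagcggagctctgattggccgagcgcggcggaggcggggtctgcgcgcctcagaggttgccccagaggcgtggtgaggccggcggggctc
Cd207: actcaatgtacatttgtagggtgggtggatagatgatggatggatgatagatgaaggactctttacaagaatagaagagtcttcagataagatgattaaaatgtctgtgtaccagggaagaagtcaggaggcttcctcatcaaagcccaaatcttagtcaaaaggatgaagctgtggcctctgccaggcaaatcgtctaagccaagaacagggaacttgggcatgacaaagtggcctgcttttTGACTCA

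The 3 windows shared no motif. The Cd8a window held 2 matches to the Ets-IRF composite element, both on the opposite strand, at bases -158 to -149 and -136 to -127 before the start. A match to this motif was present in 2.3% of 32851 windows of the same length. The Ly75 window held TGTGGT at -200 to -195, a motif found in 14% of windows, and the Cd207 window held TGANTCA at -7 to -1, found in 6.7%. The E-box letters CAGGTG and CAGGTA, found in 17.2% and 10.0% of windows, were in none of the 3. GC content was 42.8% for Cd8a, 66.8% for Ly75 and 43.6% for Cd207.

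Other surface markers of the subsets, from lists fixed with earlier results of these data known, give the sorts their context. Of 6 other cDC1 surface markers 5 were higher in control CD24+ than in control CD172a+ cDCs, with a median log2 difference of 4.10 against -0.017 over all genes. The chemokine receptor gene Xcr1 (5.42), the dead-cell receptor gene Clec9a (4.86), the integrin gene Itgae (3.34) and the scavenger receptor gene Cd36 (4.96) were among them. Of 10 other cDC2 surface markers 5 were lower and 1 was higher, with a median of -0.97. Clec4a4 (-5.24), Itgam, which encodes CD11b (-4.06), and the lectin gene Cd209a (-2.50) were lower. Clec12a, an inhibitory lectin gene, was higher in CD24+ cDCs (2.35, adjusted p = 8.98e-05), against the name of its list. Of 8 surface markers that cDC subsets share, 1 passed, Ptprc, which encodes CD45 (-0.82, adjusted p = 0.00691), while the CD11c gene Itgax differed by -0.68 (adjusted p = 0.336) and Flt3, the receptor for the growth factor of the cDC lineage, by 0.54 (adjusted p = 0.102).

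Of 7 measured ligands and binding partners of the proteins, 1 passed between the control subsets. Siglecg, which encodes a sialic acid-binding receptor of CD24, had a mean of 6.47 ± 0.33 (SD, n = 3) on the CD24+ arrays and 8.87 ± 0.19 (SD, n = 4) on the control CD172a+ arrays, a log2 difference of -2.40 (SE 0.168, adjusted p = 6.42e-06). Its level ran opposite to that of Cd24a, whose direction between these groups was set by the sort.

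Whether the markers shift with the Zeb2 genotype within 1 sorted subset was asked of the CD172a+ groups, labelled Zeb2-deficient against control. None of the 8 genes passed in limma, and 1, Cd8b1, had an unadjusted p below 0.05. Among all genes 10 passed, or 0.0502% (0.0401% higher and 0.01% lower), and 3.88% had an unadjusted p below 0.05. With the arrays of these 2 groups alone 5 genes passed, and 26 once the replicate number was added as a block, none of the 8 in either. The median difference of the 8 was 0.03, against 0.006 over all genes.

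**Figure D3:**
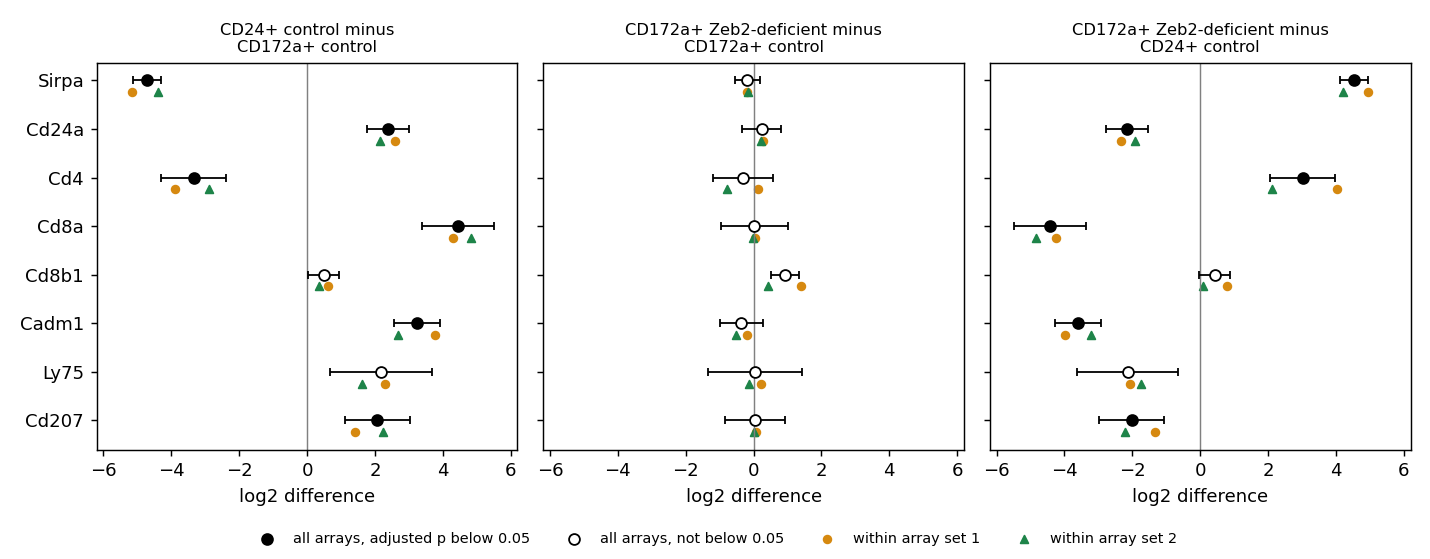
Log2 differences of the 8 genes are plotted for control CD24+ minus control CD172a+ cDCs (left), CD172a+ cDCs labelled Zeb2-deficient minus control CD172a+ cDCs (middle) and CD172a+ cDCs labelled Zeb2-deficient minus control CD24+ cDCs (right), with 95% intervals over all arrays, filled circles for adjusted p below 0.05 and small symbols for the differences within each array set. In the middle panel every interval but that of Cd8b1 (0.50 to 1.33) spans 0.

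Cd8b1 read 5.98, 5.56, 5.14 and 5.12 in CD172a+ cDCs labelled Zeb2-deficient and 4.50, 4.23, 4.73 and 4.68 in control CD172a+ cDCs. The groups did not overlap, as held for 2.1% of all genes (1.09% higher), and the gap was wider in the first array set than in the second. The log2 difference was 0.92 (SE 0.190, 95% interval 0.50 to 1.33), or 1.89-fold, not an exact ratio at these low levels, with an unadjusted p of 0.000561 that ranked the gene 28 of 19938. The adjusted p was 0.399. Blocking on the array set gave 0.0912 and blocking on the replicate number 0.205. Within the first and second set the difference was 1.40 and 0.43. The mean was 5.45 ± 0.41 in the labelled Zeb2-deficient cells and 4.53 ± 0.23 in control cells (SD, n = 4 each). Both means were below the median of all genes, but the labelled Zeb2-deficient arrays of the first set (5.98 and 5.56) lay above it (5.54 in that group).

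Its neighbour Cd8a read 7.04, 7.04, 5.95 and 5.47 in CD172a+ cDCs labelled Zeb2-deficient and 7.11, 6.90, 5.39 and 6.05 in control CD172a+ cDCs. The groups overlapped within each array set, and the log2 difference was 0.02 (95% interval -0.97 to 1). The difference of Cd8a minus Cd8b1 was 0.93 ± 0.48 in the labelled Zeb2-deficient cells and 1.83 ± 0.98 in control cells (SD, n = 4 each), and the change of -0.90 did not pass an exact permutation test (two-sided, p = 0.2, 70 assignments, smallest possible p 0.0286). It was -1.36 and -0.43 within the first and second array set, and the permutation did not take the sets into account. Of the 13 T cell markers 0 passed in limma and 0 had an unadjusted p below 0.05. B cell markers had a mean log2 level of 5.72 to 6.26 in the labelled Zeb2-deficient arrays and 5.49 to 5.91 in the control CD172a+ arrays, and pDC markers 6.59 to 6.92 and 6.12 to 6.54, both highest in the first array set of either group. The median log2 difference was 0.02 for the B cell list and 0.19 for the pDC list, against 0.006 over all genes. The mean level of a list can thus rest on few of its genes. Of 8 B cell markers 3 had an unadjusted p below 0.05 and 0 passed in limma, the first being Ms4a1 (2.02, adjusted p = 0.135). Of 7 pDC markers 1 passed, Cox6a2 (2.09, adjusted p = 0.000197). Their part in the Cd8b1 difference was not tested.

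Cd4 read 9.10, 9.11, 7.36 and 7.72 in CD172a+ cDCs labelled Zeb2-deficient and 8.91, 9.04, 8.71 and 7.90 in control CD172a+ cDCs. In the first array set the labelled Zeb2-deficient arrays lay just above the controls, and in the second they lay below them. The log2 difference over all arrays was -0.32 (95% interval -1.20 to 0.56, adjusted p = 0.998), with 0.13 and -0.77 within the 2 sets. The spread of Cd4 in the labelled Zeb2-deficient cells (SD 0.92) was the widest of the 8 genes in that group after Ly75 (SD 0.98).

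Cadm1 read 5.89, 6.06, 6.78 and 6.64 in CD172a+ cDCs labelled Zeb2-deficient and 6.24, 6.12, 7.24 and 7.24 in control CD172a+ cDCs. The labelled Zeb2-deficient arrays were lower than the controls within both sets, with differences of -0.20 and -0.53, while the groups overlapped over all arrays. The difference of -0.37 (95% interval -1 to 0.27) did not pass, nor did it after blocking on the array set (adjusted p = 0.523).

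Ly75 and Cd207 overlapped between the CD172a+ groups. Ly75 read 6.34, 6.08, 7.88 and 7.92 in the labelled Zeb2-deficient cells and 5.82, 6.14, 7.86 and 8.20 in control CD172a+ cDCs, a difference of 0.05 with a wide interval of -1.34 to 1.43. Blocking on the array set narrowed its SE to 0.139 at the same difference. Cd207 read 4.2, 4.42, 4.68 and 5.04 in the labelled Zeb2-deficient cells and 3.98, 4.49, 4.88 and 4.80 in control cells, a difference of 0.05 (95% interval -0.84 to 0.94). Sirpa and Cd24a, on which the cells of both groups were sorted alike, differed by -0.18 (95% interval -0.56 to 0.19) and 0.24 (95% interval -0.33 to 0.82).

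Of the other surface markers, 0 of 6 for cDC1 and 0 of 10 for cDC2 passed between the CD172a+ groups in limma, and 2 of each list had an unadjusted p below 0.05. Clec9a differed by -0.72 and Itgae by 0.29 (adjusted p = 0.998 each), and the chemokine receptor genes Ccr2 and Cx3cr1 by -1.23 (adjusted p = 0.637) and -0.79 (adjusted p = 0.998). None of the 8 shared markers passed, and 0 had an unadjusted p below 0.05.

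CD172a+ cDCs labelled Zeb2-deficient were also set against control CD24+ cDCs. This comparison shares its arrays with both others, and its values are given for their size. Of the 6 genes other than the sort markers, Cd4 was higher (log2 difference 3.02, SE 0.431) and Cd8a (-4.43, SE 0.484), Cadm1 (-3.60, SE 0.310) and Cd207 (-2.02, SE 0.436) were lower in the labelled Zeb2-deficient cells. That was 4 of 6, where 7.17% of all genes passed, 3.25% higher and 3.92% lower, and 18% had an unadjusted p below 0.05. Of the 6, 5 did not overlap between the groups, as held for 17.9% of all genes (8.9% higher). Adjusted p was 0.00115 for Cd4, 0.000178 for Cd8a, 3.18e-05 for Cadm1 and 0.0164 for Cd207, the last being 0.0524 when only the arrays of the 2 groups were fitted. Ly75 differed by -2.14 (adjusted p = 0.0965, and 3.43e-06 after blocking on the array set, a split found from these same values). Cd8b1 differed by 0.43 (95% interval -0.02 to 0.88), and the groups overlapped.

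In the means of the 3 groups, CD24+ cDCs were on top for Cd8a, Cadm1, Ly75, Cd207 and the sort marker Cd24a. For these genes the CD172a+ groups were not separated beyond their spread over all arrays. Cadm1 was lower in the labelled Zeb2-deficient arrays within both array sets, though it did not pass. For Cd4 and the sort marker Sirpa both CD172a+ groups stood above CD24+ cDCs and again did not differ beyond their spread. Cd8b1 alone had labelled Zeb2-deficient CD172a+ cDCs on top (5.45 ± 0.41), then CD24+ cDCs (5.02 ± 0.15) and control CD172a+ cDCs (4.53 ± 0.23), and no pair of the 3 groups passed.

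Several of the genes differed more between the array sets than between the CD172a+ groups. From set 1 to set 2, Ly75 differed by 1.69 in the labelled Zeb2-deficient cells, 1.37 in CD24+ cDCs and 2.05 in control CD172a+ cDCs. Cd8a differed by -1.33, -0.75 and -1.28 in the same order of groups, and Cadm1 by 0.73, -0.03 and 1.06. Cd4 differed by -1.57 in the labelled Zeb2-deficient cells and -0.67 in control CD172a+ cDCs, and by 0.32 in CD24+ cDCs. These differences describe sets that were found from the same values and were not tested. Macrophage markers moved with the sets, at a mean log2 level of 5.67 to 5.88 on the 4 CD172a+ arrays of the first set and 6.82 to 7.20 on the 4 of the second, and at 5.13 and 5.77 in CD24+ cDCs. Their part in the marker values was not tested. Neutrophil and erythroid markers stayed below the median of all genes in every group mean, with 0 of 8 and 0 of 5 measured genes above it.

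**Figure D4:**
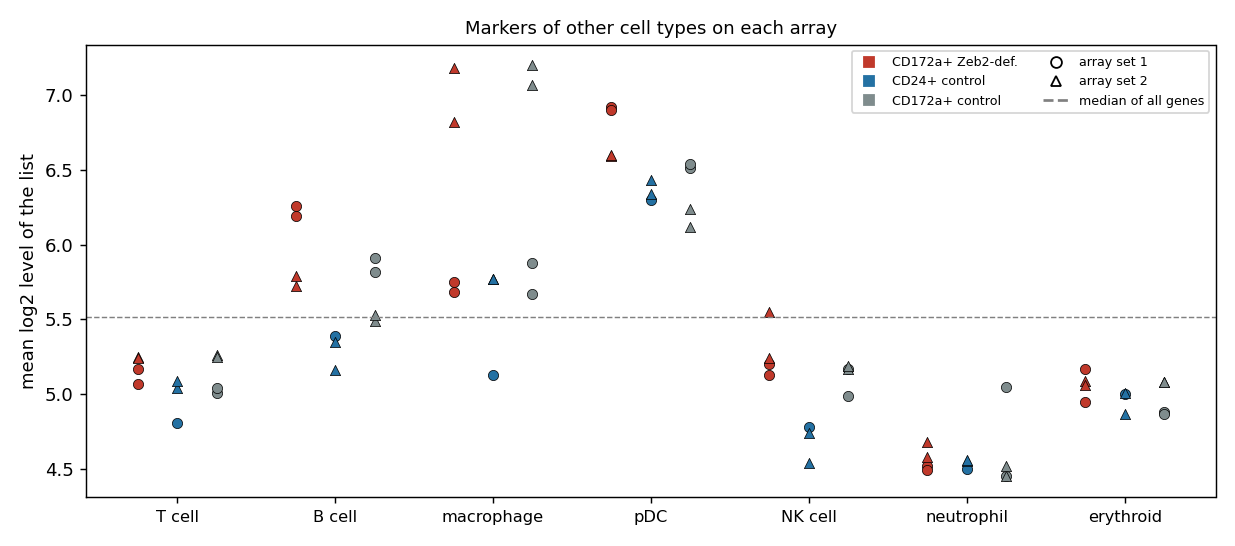
The mean log2 level of the marker genes of 7 other cell types is plotted for every array, with CD172a+ cDCs labelled Zeb2-deficient, control CD24+ and control CD172a+ cDCs from left to right within each cell type, circles for array set 1, triangles for array set 2 and a dashed line at the median of all genes. T cell levels stay between 4.81 and 5.26, and macrophage levels of CD172a+ arrays split by array set.

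The genes most like each marker were taken by Pearson's r over all 11 arrays, as a description, since the points share groups and array sets. For Cd4 they were Acp5 (0.986), Ube2e2 (0.984) and Npl (0.978), and for Cd8a they were Pafah1b3, Cpne3 and Gusb (0.988 each). Cd8b1 had the least close company, with Lamp3 (0.901), Mei4 (0.890) and Fabp9 (0.870). Ly75, whose values carry both the subset and the array set, was followed by Serpinb9 (0.997), Fnbp1l (0.994) and Cttnbp2nl (0.983). Cadm1 was followed by P2ry14 (0.992), Arhgap21 (0.990) and Pdlim7 (0.988), and Cd207 by Pcsk5 (0.967), Esyt3 (0.965) and Rab13 (0.956). Of the sort markers, Sirpa was followed by Clec4a1 (0.998), Adgre1 (0.995) and Carmil1 (0.995), and Cd24a by Lima1 (0.983), Clec12a (0.979) and Sec63 (0.979).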

How the data were processed

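The authors deposited log2 expression values per probe set, for which the submitters' processing notes name RMA; the version, probe filters and genome build are not given in the sources used here. Total RNA was amplified with the Ovation PicoSL kit and biotin labelled, per the labels' protocols. Array medians lay between 5.454 and 5.521, and precision is limited by how few arrays there are. Names of probe sets came from GEO's platform annotation: of 30177, 21789 carried 1 gene, 1621 several and 6767 none. The probe set with the highest mean stood for each of 19938 genes. Groups came from the array titles.

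Differences between groups were fitted in R 4.3.3 with limma 3.58.1, 1 model over all 11 arrays with 8 residual degrees of freedom, two-sided, Benjamini-Hochberg over all genes, threshold 0.05. The procedure was also run on simulated data with independent noise for each gene and array. The simulation held no array sets, so it does not cover that split. Figures used matplotlib 3.10.9 in Python 3.11.15. Genes named were the 8, up to 4 per list by smallest p, and the 3 most correlated with each. Predicted genes and receptor or immunoglobulin segments were left out of the last. Partly outside that rule, Cd3e, Cd3g, Pla2r1 and Clec4f are named in their comparisons as T cell receptor subunits or genomic neighbours. Il7r is named as a T cell marker above the median of all genes. Genes and lists were chosen with earlier results of these data known. Upstream windows and neighbours came from RefSeq (GRCm38.p6).

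Same-numbered labelled Zeb2-deficient and control CD172a+ arrays deviated together across genes (r from 0.442 to 0.68 in 4 pairs), as did other-numbered arrays of the same set (0.496 to 0.699), so a shared number cannot be told apart from a shared array set, and the labels state no pairing. The replicate block is given as an alternative.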

Additional observations from a re-analysis of the deposited data

How the results depend on the processing

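In the 3 comparisons the direction and the side of the threshold of each of the 8 genes held with arrays centred on their medians. They also held with eBayes using trend and robust settings. Taking the lowest-mean probe set of each gene changed no call of the 8. Each of them has 1 probe set, so their differences stayed the same and this setting could not test them. The filter keeping 9969 brighter genes dropped Cd8b1 and Cd207 and changed no other. Genes passing between control CD24+ and CD172a+ cDCs numbered 1278, and 3080 after blocking on the array set and 762 with the replicate block. Between labelled Zeb2-deficient and control CD172a+ cDCs they numbered 10, and 29 after blocking on the array set, 26 with the replicate block, 0 by limma within array set 1 (2260 genes before adjustment) and 5 with the arrays of the 2 groups alone. Between labelled Zeb2-deficient CD172a+ and CD24+ cDCs they numbered 1429, and 3641 after blocking on the array set. The cause of these changes was not tested. The restricted fits hold fewer arrays, and the array sets were found from these same values. The replicate block was fitted on the arrays of the 2 groups alone. It brought Ly75 past the threshold against CD24+ cDCs (adjusted p = 0.0154 for the control and 0.0203 for the labelled Zeb2-deficient CD172a+ group, and 0.136 and 0.0759 without the block). Cd207 between control subsets missed it with the block (0.054) and already without it (0.0636). CD24+ numbers do not pair with the CD172a+ numbers (r = 0.506, -0.445 and 0.241). Replicate 2 of CD24+ cDCs is in the second array set, and replicate 2 of both CD172a+ groups is in the first. CD24+ cDCs have no replicate 4, so under this block replicate 4 of a CD172a+ group adds nothing to its difference from CD24+ cDCs.

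Between the CD172a+ groups, differences that passed nowhere changed sign: Cd4 was 0.13 within array set 1, and Cd8a -0.01 and Ly75 -0.13 within array set 2. Leaving out 1 array at a time gave -0.58 to 0 for Cd4, -0.31 to 0.32 for Cd8a, -0.35 to 0.45 for Ly75 and -0.14 to 0.18 for Cd207, and no call of the 8 changed in any comparison. Passing genes then numbered 7 to 11 between the CD172a+ groups, 874 to 1220 between the control subsets and 985 to 1533 between labelled Zeb2-deficient CD172a+ and CD24+ cDCs. Motif shares on the gene strand alone were 9.4% for CAGGTG, 5.5% for CAGGTA, 7.4% for TGTGGT and 1.2% for the Ets-IRF composite element.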

Other observations

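Transcription factors that control Cd4 and Cd8 in T cells were measured as a list of 11 genes. Between control CD24+ and control CD172a+ cDCs, Myb was higher (7.40 ± 0.66, n = 3, against 5.92 ± 0.13, n = 4, log2 difference 1.49, adjusted p = 0.00264) and Satb1, a chromatin organiser of developing T cells, was lower (8.22 ± 0.06 against 9.30 ± 0.21, -1.08, adjusted p = 0.000495). Runx3 (-0.93, adjusted p = 0.185), which silences Cd4 in CD8+ T cells, and Zbtb7b (-0.42, adjusted p = 0.576), which keeps CD4+ T cells in their lineage, did not pass. Between labelled Zeb2-deficient and control CD172a+ cDCs 0 of the 11 passed in limma and 1, Runx1, had an unadjusted p below 0.05 (8.20 ± 0.19 against 8.65 ± 0.05, SD, n = 4 each, -0.46, adjusted p = 0.637).

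Genes usually listed for other cell types also differed between the subsets. Klrd1, a natural killer cell receptor gene, averaged 8.03 ± 0.49 in control CD24+ cDCs (SD, n = 3) and 10.95 ± 0.56 in control CD172a+ cDCs (SD, n = 4), a log2 difference of -2.91 (adjusted p = 8.91e-05), and was the 1 of 7 natural killer cell markers to pass. Of 8 B cell markers, Cd22 was lower (-2.36, adjusted p = 0.00395) and Fcrla was higher (0.93, adjusted p = 0.00198). Of 7 pDC markers, the chemokine receptor gene Ccr9 was higher (2.03, adjusted p = 6.67e-05) and the transcription factor gene Spib was lower (-2.04, adjusted p = 0.0221). Of 10 macrophage markers, 1 passed, the adhesion receptor gene Adgre1 (-4.57, adjusted p = 1.29e-07).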
